A study of Homo sapiens with 40 samples.

Results

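To describe the chromatin of the Notch pathway in beta-like cells before and after senescence, regions of 10 genes were collected: the receptors NOTCH1, NOTCH2 and NOTCH3, the ligands DLL1, DLL4 and JAG1, the nuclear mediator RBPJ, the target genes HES1 and HEY1, and the endocrine regulator NEUROG3. A region was assigned to a gene when it lay within 2 kb of one of its coding start sites in GENCODE 44, inside its body, or nearest to it within 100 kb. In this way 38 of 51489 H3K27ac peaks, 45 of 51457 CTCF peaks, 14 of 14886 non-senescent enhancers, 10 of 13076 senescent enhancers and 0 of 2435 Rb regions were assigned. The 10 genes are among 19689 protein-coding genes with a coding start site.

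The regions come from chromatin immunoprecipitation sequencing (ChIP-seq) of EndoC-βH3 cells, a beta-cell line from human fetal pancreas immortalized with hTERT and SV40 Large T-antigen. Senescent cells were treated for 3 weeks with 4-hydroxytamoxifen (4-OHT), which activates a Cre recombinase that removes both transgenes, and the non-senescent controls of the same line kept them. Treatment, loss of the transgenes and senescence therefore cannot be told apart, and 1 cell line stands for all beta cells. There were 3 libraries per state for H3K27ac (acetylated histone H3, found at promoters and enhancers in use) and CTCF (a protein that anchors chromatin loops), 2 per state for H3K4me1 (an enhancer mark) and for Rb (a cell-cycle repressor), and an input for each, 40 in all.

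The peak tables give for each peak the authors' mean normalized count over the libraries of both states, with no value per library. A level below is this mean, or this mean per kb of peak where peaks are compared, and it has no error. In bulk chromatin, weak marking of all cells and marking of few cells cannot be told apart. The tables give no depth of single libraries, and the means sum to 19239499 over H3K27ac peaks and 6136424 over CTCF peaks. Either total exceeds the number of read pairs per library given in the methods, so the scale of the means is uncertain and they were read only relative to each other. The tables also hold the authors' own comparison of the states per peak, which was not used here. The states are therefore compared below only by the enhancer lists, 1 per state and without replicates, and no difference between the states was tested. Beta cell identity was checked with a fixed set of markers. All 7 beta cell genes had an H3K27ac peak at a start site, with levels from 2453 (NKX6-1) to 16247 (PAX6). Start sites of 0 of 3 endothelial and 0 of 3 fibroblast genes had one, against 1 of 3 acinar (CPA1), 1 of 3 duct (KRT19), 1 of 3 leukocyte (CD68), 2 of 3 alpha cell and 2 of 2 delta cell genes.

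Notch receptors are cut when a ligand on a neighbouring cell binds them, and the released intracellular domain enters the nucleus and joins RBPJ on DNA. RBPJ then switches from repression to activation of genes such as HES1 and HEY1, which encode repressors. In the developing pancreas, Notch signals hold progenitors back from the endocrine fate, and HES1 represses NEUROG3, the factor that starts that fate and is switched off again in mature beta cells.

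Promoter sequences of 8 of the 10 genes, 12 sequences in all, matched by symbol in RefSeq (GRCh38.p14, 250 bases before to 50 after the start). They were searched for the RBPJ core letters TGGGAA on both strands. Copies were found at HES1 and at 1 of the 5 RBPJ promoters, with 2 copies in each. Of all 35116 promoters, 24% held at least 1 copy and 3.8% held at least 2. Both sequences are shown because they hold copies, on the plus strand and with the copies in capitals. They also lie inside the H3K27ac peaks described below. At HES1 (chr3:194135898-194136197) the copies begin 84 and 70 bases before the start site and lie on the same strand. At RBPJ (chr4:26319496-26319795) they begin 115 and 72 bases before the start of that promoter and lie on opposite strands. That start lies upstream of the canonical RBPJ start, whose promoter (chr4:26320764-26321063) held 0 copies.
HES1 promoter: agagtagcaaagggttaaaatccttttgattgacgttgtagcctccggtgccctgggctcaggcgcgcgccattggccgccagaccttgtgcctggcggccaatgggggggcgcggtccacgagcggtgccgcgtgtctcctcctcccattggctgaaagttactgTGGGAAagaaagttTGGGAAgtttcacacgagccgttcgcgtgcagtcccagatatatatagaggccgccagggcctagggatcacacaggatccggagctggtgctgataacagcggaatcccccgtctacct
RBPJ promoter: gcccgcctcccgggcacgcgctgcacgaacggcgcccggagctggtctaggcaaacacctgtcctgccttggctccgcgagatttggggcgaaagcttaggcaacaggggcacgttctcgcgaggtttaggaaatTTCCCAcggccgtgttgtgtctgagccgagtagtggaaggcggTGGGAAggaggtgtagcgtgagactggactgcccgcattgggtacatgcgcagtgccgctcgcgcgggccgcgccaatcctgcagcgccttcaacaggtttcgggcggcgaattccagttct

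An H3K27ac peak lay at a start site of 6 of the 10 genes (60%, 95% Wilson interval 31.3% to 83.2%, covering counting error only), against 66.4% of all protein-coding genes. The 6 were the ligands DLL1, DLL4 and JAG1, the mediator RBPJ and the targets HES1 and HEY1. The 3 receptors and NEUROG3 had none. The median level over the 13065 genes with a promoter peak was 601.1 mean normalized counts, or 184 per kb with an interquartile range from 115 to 267. HES1 had the highest level per kb of the 6 genes at 322, above the upper quartile. DLL4 followed at 231, JAG1 at 217, RBPJ at 198, HEY1 at 181 and DLL1 at 157, all inside the interquartile range. Without values per library it cannot be said which neighbours in this order differ.

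**Figure D1:**
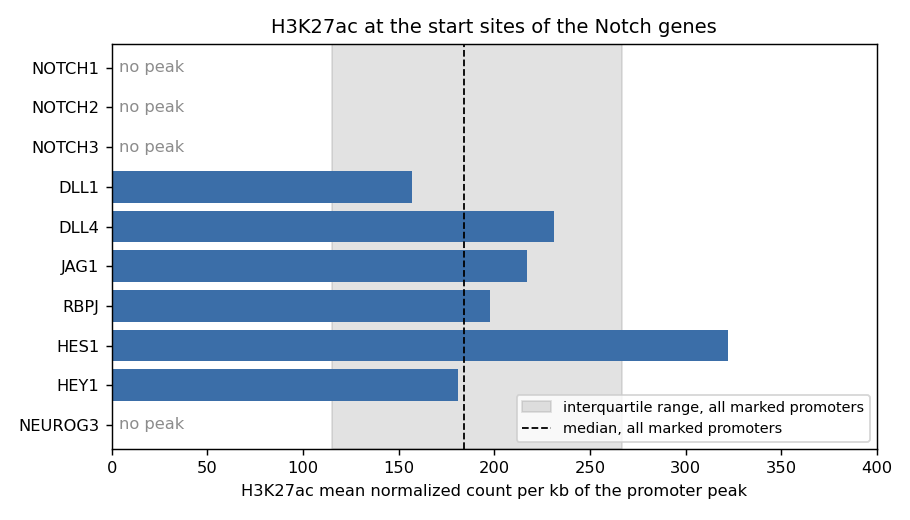
Bars show the H3K27ac mean normalized count per kb of the promoter peak with the highest count of each gene, over the libraries of both states. The grey band and the dashed line are the interquartile range (115 to 267) and the median (184) of all promoters with a peak. HES1 (322) lies above the band, 5 genes lie inside it, and the 3 receptors and NEUROG3 have no peak. The absence at NOTCH2 is uncertain, as described in the text.

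Among the receptors, NOTCH1 was the only one with H3K27ac peaks, and they lay away from its start sites. One covered an exon of NOTCH1 24.1 kb downstream of the canonical start (chr9:136519138-136521908) with a level of 188.4 mean normalized counts. A pair of smaller peaks, with 19.99 and 105.3 counts, lay in introns 19.9 and 17.6 kb downstream. The fourth, with 66.36 counts, lay 3.82 kb upstream over NALT1, a non-coding gene that neighbours NOTCH1. Per kb, all 4 had 31 to 68 counts, below the first quartile of promoter peaks. Such levels were ordinary for peaks away from start sites. Over all genes, the median per kb of those was 44.9 in no enhancer list and 116 in both lists. It was 65.4 in the non-senescent list alone and 66.2 in the senescent list alone.

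No H3K27ac peak and no enhancer of either state was assigned to NOTCH2 or NOTCH3. The nearest H3K27ac peak to the canonical NOTCH3 start was 21.8 kb away, with 203 counts, and was nearest to EPHX3. For NOTCH2 it was 106 kb away, with 520.1 counts, and was nearest to SEC22B. The NOTCH2 promoter has near-identical copies elsewhere on chromosome 1, at the NOTCH2NL genes. Of the 32-base windows within 2 kb of the NOTCH2 start, 92.7% recurred elsewhere in hg38, against 13.2% at NOTCH3 and at most 3.6% at the other 8 genes. How uniquely the read pairs of these libraries mapped there was not tested, and a weak CTCF peak, with 7.821 counts, was called over the start, so the absence of an H3K27ac peak at NOTCH2 is uncertain. Among the copies, NOTCH2NLC had a promoter H3K27ac peak, with 62.72 counts. This comparison was made after the values were seen.

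All 3 ligands had H3K27ac at a start site, with the limit for DLL1 given below. DLL4, a ligand best known from blood vessels, lay inside a single peak of 20826 bp (chr15:40925088-40945913) with 4819 counts, which covered the whole gene and was wider than 99.8% of all H3K27ac peaks. Only 112 of 51489 peaks were at least 20 kb wide. Its level per kb of 231 was not exceptional, being higher than 65.7% of promoters with a peak. A further 5 small peaks, with 22.12 to 59.28 counts, lay 4.73 to 14.4 kb upstream of DLL4. The endothelial markers PECAM1, CDH5 and KDR had no promoter peak in these cells.

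JAG1, a ligand active in the developing bile ducts and pancreas, had a promoter peak of 476.3 counts over 2190 bp (chr20:10673325-10675514). Its other peak, with 44.68 counts, lay 37.3 kb upstream. DLL1, a ligand of early endocrine progenitors, had peaks at both of its start sites. The peak over the canonical start (chr6:170288972-170292021) had 332.2 counts and the one over the upstream start (chr6:170305600-170308144) had 398.6. Start sites of FAM120B lie within 2 kb of both, so this signal cannot be assigned to DLL1 alone. Neither JAG1 nor DLL1 was assigned an enhancer from either list. The enhancers closest to the canonical DLL1 start were 9.24 kb (non-senescent) and 9.19 kb (senescent) away, and were nearest to FAM120B.

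RBPJ, the DNA-binding partner of all Notch receptors, had 8 H3K27ac peaks, more than 93.1% of genes. The strongest lay over its canonical start (chr4:26318615-26322745), with 817.6 counts and 198 per kb. It also held the RBPJ promoter sequence shown above, which belongs to a start upstream of the canonical one. The other 7 peaks ran from 18.85 to 209.5 counts and from 178 kb upstream to 50.5 kb downstream of the canonical start. RBPJ has 26 coding start sites, some of them far upstream of the canonical one. HES1, a repressor and the classical Notch target, had 11 peaks, more than 96.3% of genes. Its promoter peak (chr3:194130028-194138797) was 8770 bp wide, covered the whole gene and had 2826 counts. Nearby peaks 21.1 kb upstream, with 1365 counts, and 3.44 kb downstream, with 1077 counts, had 307 and 280 counts per kb, close to the 322 of the promoter.

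HEY1, the second target, had 5 peaks, with 465.7 counts at its promoter and 580.1 counts 88.6 kb upstream. Another upstream peak, 15 kb from the start, had 368.3 counts. Its outermost assigned peak lay 96.6 kb upstream with 110.9 counts, and the first peak beyond the limit of 100 kb that was nearest to HEY1 lay at 102 kb with 189 counts. For HES1 the outermost peak was at 88.5 kb with 38.14 counts and the first beyond the limit at 115 kb with 90.55. The latter holds an enhancer of the senescent list (chr3:194019234-194020716), which the limit leaves out of the counts for HES1. NEUROG3 had no region of any kind within the limits. The nearest H3K27ac peak was 55.9 kb from its start, with 130.7 counts, and the nearest CTCF peak was 55.8 kb away, with 583.9 counts, both nearest to FAM241B.

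**Figure D2:**
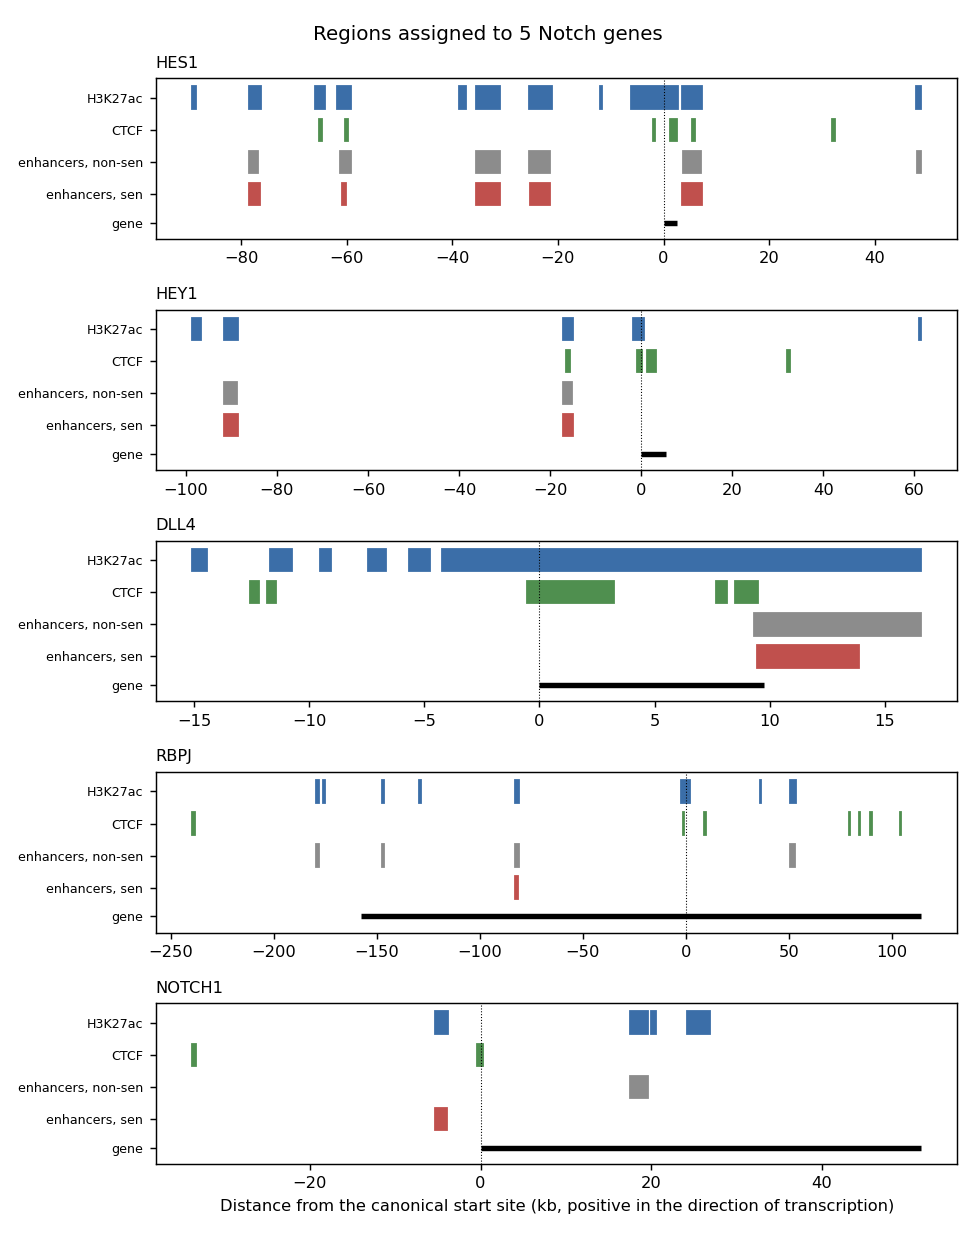
Each panel places the regions assigned to 1 gene by their distance in kb from its canonical start site (dotted line), positive in the direction of transcription. Rows are H3K27ac peaks, CTCF peaks, enhancers of the non-senescent list, enhancers of the senescent list and the gene body; regions under 0.4 kb are drawn 0.4 kb wide. HES1 has an enhancer at 5 places in both lists, whereas RBPJ has 4 non-senescent enhancers and 1 senescent one.

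Enhancers were next compared between the lists of non-senescent and senescent cells, which the study built from overlapping H3K27ac and H3K4me1 signals. Of the 14 non-senescent enhancers, 5 had no senescent enhancer over them (35.7%, 95% Wilson interval 16.3% to 61.2%), against 29.4% of the whole list. Of the 10 senescent enhancers, 1 had no non-senescent counterpart (10%, 1.79% to 40.4%), against 20.5% of the whole list. Both intervals hold the share of the whole list. They treat enhancers as independent, although 6 of the 14 non-senescent ones were at HES1 and 4 at RBPJ, so they may be too narrow. Enhancers of the 10 genes covered 37106 bp in the non-senescent list and 28091 bp in the senescent list, while the whole lists covered 41940458 and 41010777 bp. When the start sites of non-coding genes also competed for regions, 6 and 2 enhancers stayed with the 10 genes, with 16017 and 6132 bp.

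RBPJ accounted for most of the difference in length. It had 4 enhancers and 6677 bp in the non-senescent list and 1 enhancer of 1688 bp in the senescent list. The shared enhancer lay 81.2 kb upstream of the canonical start and overlapped its counterpart by 1652 bp. The 3 enhancers listed in non-senescent cells alone lay in an intron 50.6 kb downstream (chr4:26371574-26373953), 146 kb upstream inside the annotated gene (chr4:26173673-26174639), and 178 kb upstream (chr4:26141292-26142836). The H3K27ac peaks at these 3 had 199.4, 54.39 and 82.42 counts.

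HES1 had most of its enhancers in both lists. It had 6 in the non-senescent list and 5 in the senescent list, with 16350 and 15416 bp, more enhancers than 98% and 97.6% of genes. These counts and ranks rest on protein-coding start sites alone. When non-coding start sites also competed, none of the enhancers of HES1 or HEY1 stayed with these genes. The enhancer in the non-senescent list alone lay 48.1 kb downstream (chr3:194184230-194184875), was 646 bp long and stood on a peak of 52.13 counts. The other 5 overlapped between the lists, by 98.4% of the non-senescent length at the strong enhancer 21.6 kb upstream and by 40.1% at the one 59.1 kb upstream, which was 2222 bp long in the non-senescent list and 892 bp in the senescent list. HEY1 had the same 2 places in both lists, 15.1 and 88.9 kb upstream, with 4739 bp in non-senescent and 5179 bp in senescent cells.

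At DLL4, 1 enhancer was listed in each state, at the 3' end of the gene inside the wide peak. It covered 7274 bp in the non-senescent list and 4444 bp in the senescent list, and all 4444 bp lay within the longer one. The longer enhancer came nearest to the start site of CHAC1, the next gene, and belonged to DLL4 only by overlapping its body. NOTCH1 was the only gene of the 10 with an enhancer in each list and none in common. The non-senescent one was the intronic peak 17.6 kb downstream (chr9:136526431-136528496), with 105.3 counts. The senescent one lay upstream (chr9:136549982-136551345) on the peak of 66.36 counts, and went to NALT1 when non-coding start sites were counted.

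**Figure D3:**
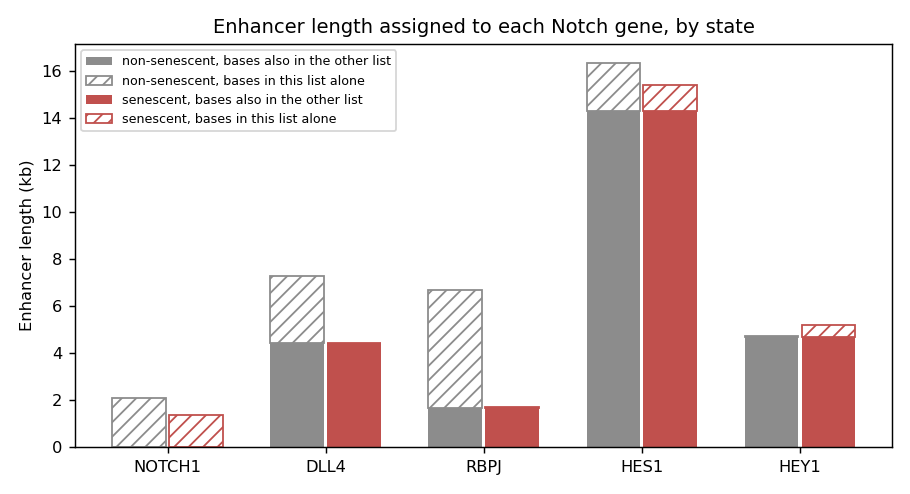
Bars give the summed length in kb of the enhancers assigned to each gene, non-senescent list in grey and senescent list in red; filled parts are bases also covered by the other list and hatched parts are bases of that list alone. The hatched part is largest for RBPJ in the non-senescent list, and NOTCH1 has hatched parts alone.

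Enhancers listed in 1 state alone stood on weaker H3K27ac peaks than shared ones. Away from start sites, the 6 peaks under them had 44.9 to 70 counts per kb, and the 8 peaks under shared enhancers had 69.7 to 307. The ranges overlapped by a single pair of peaks, that of the RBPJ intron and that of HES1 59.1 kb upstream. The same held for all genes, with a median of 65.4 counts per kb for the 3925 peaks in the non-senescent list alone, 66.2 for the 2428 in the senescent list alone and 116 for the 9496 in both lists. The level is a mean over both states and the lists rest on the same H3K27ac libraries, so the measures are not independent, and the part of peak strength in the listing was not tested. Another 17 of the 31 peaks away from start sites were in no list, with a median of 38.1 counts. The strongest of these, with 271.9 counts, lay 64.2 kb upstream of HES1.

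**Figure D4:**
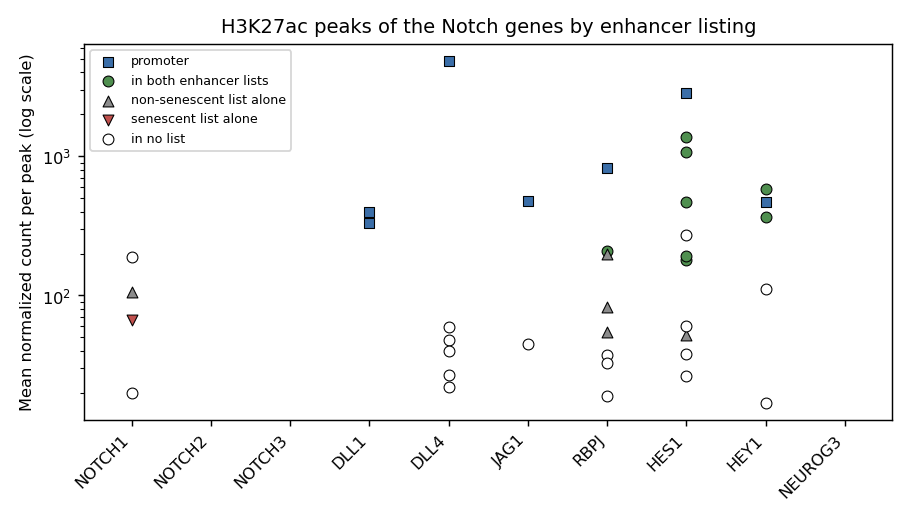
Points are the 38 H3K27ac peaks of the 10 genes by their mean normalized count on a log scale, marked as promoter peaks, peaks in both enhancer lists, in 1 list alone or in none. Peaks in both lists (green, 179.2 to 1365 counts) lie mostly above those in the non-senescent list alone (grey, 52.13 to 199.4) and the single one in the senescent list alone (red, 66.36).

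CTCF peaks were spread over 9 of the 10 genes, from 2 at NOTCH1 to 7 each at NOTCH3 and RBPJ, with none at NEUROG3. Over all 19689 protein-coding genes the median was 2 CTCF peaks per gene and the 90th percentile was 6. The 45 peaks had a median level of 27.3 mean normalized counts, against 58.6 over all CTCF peaks. Their median width was 602 bp, against 849 bp. The CTCF core motif was searched in 12 positions on both strands, with at most 1 mismatch allowed. It was found in 15 of the 45 peaks (33.3%, 95% Wilson interval 21.4% to 47.9%), against 47.2% of all CTCF peaks and 6.7% of regions shifted by 10 kb. An H3K27ac peak overlapped 15 of the 45 (33.3%), against 30.4% of all CTCF peaks.

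A small number of CTCF peaks were strong. The DLL4 promoter peak (chr15:40928804-40932570) had 599.5 counts, more than 98.9% of CTCF peaks, and lay inside the wide H3K27ac peak. A peak on an exon of NOTCH3 22.6 kb downstream of its start (chr19:15177007-15178362) had 438.1 counts and the highest level per kb of the 45, at 323. It held no core motif at the mismatch allowed. HEY1 had 414 counts 1.34 kb downstream of its start, and JAG1 had 377.5 over its start and 358 in the neighbouring gene SLX4IP, 120 kb downstream. The HES1 promoter had 244.5 counts, while the promoter peaks of NOTCH1, RBPJ and NOTCH2 had 29.94, 17.13 and 7.821. NOTCH2 and NOTCH3, which had no H3K27ac peak, had CTCF peaks of up to 220.4 and 438.1 counts in their bodies.

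The sites below are the core motifs of the strongest motif-bearing peak at each of 5 genes, DLL4, JAG1, NOTCH2, NOTCH3 and RBPJ, shown to place the letters within these peaks. Those of HEY1 (414 counts) and HES1 (50.19 counts) also hold the motif and are not shown. The sites are written with the 12 core positions in capitals and each read in the direction of the motif. The word promoter in a label refers to the class of the peak. The DLL4 peak overlaps the promoter window, but its site lies inside the gene, downstream of that window around the start at chr15:40929340. Those in the NOTCH3 body (280.3 counts) and at JAG1 carry 1 mismatch, as do those of DLL4 and NOTCH2. Only the RBPJ intron site (114.1 counts) and a site downstream of NOTCH3 (217.1 counts) match exactly, and the latter is added. The positions in hg38 are chr15:40932209-40932238 (DLL4, plus), chr20:10674506-10674535 (JAG1, minus), chr1:119948794-119948823 (NOTCH2, plus), chr19:15161155-15161184 (NOTCH3 body, plus), chr19:15150596-15150625 (NOTCH3 downstream, minus) and chr4:26330371-26330400 (RBPJ, plus).
DLL4 promoter: tgcagcaagCCAGCAGAGTGCctgtgagta
JAG1 promoter: cctctgccgCCAGCAGAGCGCtctgggcgg
NOTCH2 body: gccttccagCCGCTAGGGGGCcccgaagac
NOTCH3 body: agtacacatCCTCCAGGGGGCtggcgccct
NOTCH3 downstream: ttcccatagCCACCAGAGGGCgtctgggaa
RBPJ intron: taacacttgCCACTAGGTGGCtcttggtct

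No Rb region was assigned to any of the 10 genes. These are regions where Rb, a repressor of cell-cycle genes, was called in senescent cells with non-senescent cells as the control. The nearest to a start site of the 10 genes lay 124 kb from HEY1, and the others were 174 kb (DLL4) or more away. The share of all 19689 protein-coding genes with an assigned Rb region was not computed. With only 2435 Rb regions in the series, the absence is not read as particular to these 10 genes.

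Promoter H3K27ac was then counted over 48 other genes of the pathway, grouped by role. A peak was present at 36 of them (75%), against 66.4% of all protein-coding genes. Their median level was 858.7 mean normalized counts, against 601.1 over all genes with a promoter peak. It was present at all 9 genes of receptor cleavage, which include the gamma-secretase subunits, at all 7 nuclear cofactors, all 5 genes of sugar transfer to the receptors, all 3 ligand ubiquitin ligases and all 5 endocrine factors. Genes of signal turnover had it at 6 of 8. It was absent at the fourth receptor NOTCH4, at the ligands DLL3, JAG2 and DLK1, and at 6 of 7 further targets (HES4, HES5, HES7, HEY2, HEYL and NRARP), with HES6 as the exception at 2430 counts. With HES1 and HEY1, 3 of 9 targets were thus marked, and with the ligands and receptors described above, 3 of 6 ligands and 0 of 4 receptors. The limits given above still hold: the DLL1 signal cannot be assigned to DLL1 alone, and the absence at NOTCH2 is uncertain.

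The highest counts were at the endocrine factors NKX2-2 (13803 counts), INSM1 (12336) and NEUROD1 (5824), the last a direct target of NEUROG3. The lowest counts were at the sugar transferase MFNG (23.41), the turnover gene DTX1 (68.92) and the sugar transferase LFNG (93.64). Per kb, these were 484, 627 and 391 for the first group and 46.8, 58.5 and 37.9 for the second. The order differed per kb, where NEUROD1 lay below NCSTN (467), PAX4 (450), MAML3 (434) and EP300 (393).

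**Figure D5:**
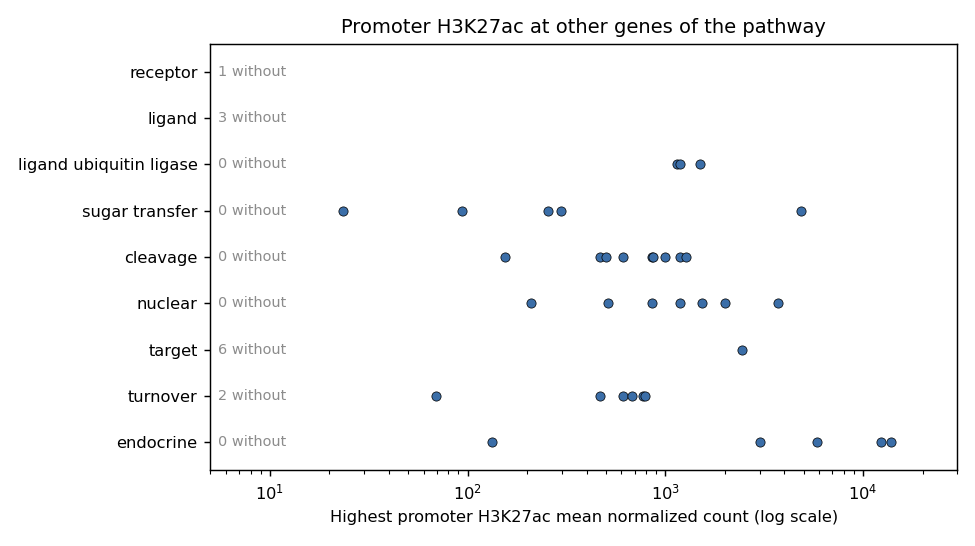
Each point is the highest promoter H3K27ac mean normalized count of 1 of 48 other pathway genes, on a log scale, by role; the number without a promoter peak is given at the left. Endocrine factors reach 13803 counts, while the receptor NOTCH4, the 3 ligands and 6 of 7 targets have no peak.

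Over the 48 genes, 75 non-senescent and 67 senescent enhancers were listed. Of these, 15 (20%) and 10 (14.9%) had no counterpart in the other state, against 29.4% and 20.5% of the whole lists. No interval was computed. MAML3 alone held 26 of the 75 and 23 of the 67, so the lower shares are not read as a trait of the 48 genes. Those in the non-senescent list alone belonged to 8 genes. FBXW7, which marks the cleaved receptor for degradation, had 4 such among its 6 non-senescent enhancers, with 2 in the senescent list, and the cofactor MAML3 had 4 among 26, with 23 in the senescent list. INSM1 had 2, and DLK1, NEURL1, SNW1, HES5 and NKX2-2 had 1 each. Those in the senescent list alone belonged to 9 genes, with 2 at MAML3 and 1 each at DLK1, JAG2, MIB2, NEURL1, NUMBL, KDM5A, NRARP and INSM1. Enhancers of both kinds were thus listed for DLK1, NEURL1, MAML3 and INSM1.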

How the data were processed

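ChIP-seq reads were aligned by the authors to hg38 with Bowtie2, and peaks were called against input with HOMER (H3K27ac, H3K4me1) or MACS2 (CTCF); Rb peaks were called with MACS2 in senescent against non-senescent cells. Versions, and how replicates were combined, were not given in the sources used here. In the deposited tables the signal is the authors' mean read count per peak after DESeq2 size factors, over the libraries of both states. The other columns hold the authors' comparison of senescent with non-senescent cells (log2 fold change, standard error, statistic, p-value, adjusted p-value) and were not used. The deposited lists of enhancers and Rb regions hold positions and no other values. The number of columns of single samples left out was 0. The study states that CTCF peaks were filtered for the motif, but the deposited table holds peaks without the core motif searched here.

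All 24 chromosome names matched hg38 and 0 regions ended beyond their chromosome. Overlaps required at least 1 bp. Recurring sequence was counted in 32-base windows. Regions were assigned with Python 3.11.15 and numpy 2.4.6, and intervals were computed with 95% confidence. Assignment and motif search were tested on simulated data. Samples were grouped by the antibody and state in the labels. As the tables hold no count per library, no depth, error or test is given for single peaks. Genes were named by rule: the 10 genes, and of the other pathway genes those with the 3 highest and the 3 lowest (or no) promoter counts or an enhancer in 1 list alone; HES6, NCSTN, PAX4 and EP300 were named after their values were seen, and 1 gene of the pathway list is not reported here. The 10 genes and the lists were chosen with earlier results of these data known. Labels do not say whether libraries came from separate cultures. Alternatives were a distance of 50 kb, start sites of all gene types, 1 start site per gene, a promoter window of 1 kb, a mean count of at least 50, an overlap of at least 0.5 and an exact motif.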

Additional observations from a re-analysis of the deposited data

How the results depend on the processing

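Of 41 values of 12 results under the alternatives, 32 stayed within 1.5 times the reported one. Letting start sites of all gene types compete for regions had the widest effect. It left 21 of 38 H3K27ac peaks, 29 of 45 CTCF peaks, 6 of 14 non-senescent and 2 of 10 senescent enhancers, with 16017 and 6132 bp, and 0 senescent enhancers without a counterpart, since non-coding genes lie at HES1, HEY1 and NOTCH1. A mean count of at least 50 left 17 CTCF peaks, and the exact core motif left 2 of 15. The 6 genes with a promoter H3K27ac peak remained 6 under all 3 alternatives tried, and Rb regions stayed at 0. The 5 of 14 non-senescent enhancers without a counterpart ranged from 4 to 6, but the number they were counted from also changed. They were 4 of 6 with start sites of all gene types, 5 of 11 at 50 kb and 6 of 18 with 1 start site per gene. At an overlap of at least 0.5 they were 6 of 14, and the share of the whole list was not computed for that overlap. The share without a counterpart is therefore not stable. No paired analysis was possible because the deposited tables hold no values per library, and for the same reason no replicate could be left out. With the authors' comparison columns not used, a pooled mean and 1 enhancer list per state limit the statements on the states to the lists, and weak peaks can cross a calling threshold in either state.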
